A study of Mus musculus with 4 samples.

Results

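The cathepsins are the main proteases of the lysosome, and cystatin C is a secreted inhibitor of the papain-like ones. The 9 cathepsin genes Ctsa, Ctsb, Ctsc, Ctsd, Ctsh, Ctsl, Ctss, Ctsw and Ctsz and the cystatin C gene Cst3 were found by symbol in the count table of CD4+ T cells put under Tfh (follicular helper) polarization in vitro, as 10 of the 54752 genes listed. RNA was sequenced from WT and Mek1/2-tKO (MEK1/2 knockout) cells in 2 libraries per genotype. The Mek1/2-tKO mice carried Cd4-Cre and floxed Map2k1 and Map2k2 alleles, so that Cre was driven by Cd4 regulatory elements, which act from T-cell development on. The study calls its WT mice littermate controls where it examined T-cell development and gives an age only for purchased C57BL/6J mice, so the alleles of the WT mice and the age of the mice behind these libraries are not given in the sources used here. In both genotypes, naïve CD4+ T cells of the spleen were activated through CD3 and CD28 with added IL-6 while TGF-β, IL-4, IFN-γ and IL-2 were each blocked by antibody, and viable cells were sorted again on day 3. Whether the libraries of a genotype came from separate mice is not stated, so the p values measure the spread between these libraries, which may be technical.

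Most lysosomal cathepsins are made as inactive precursors, reach the lysosome by the mannose 6-phosphate route and become active at its acid pH. Ctsb, Ctsc, Ctsh, Ctsl, Ctss, Ctsw and Ctsz encode cysteine proteases of the papain type, Ctsd an aspartic protease and Ctsa a serine carboxypeptidase. In antigen-presenting cells, cathepsin S removes the invariant chain (Cd74) from MHC class II molecules, and in killer lymphocytes and myeloid cells cathepsin C activates the granzymes and related serine proteases. Cystatin C is abundant in dendritic cells and macrophages and binds papain-like cathepsins tightly, and Ctsw (also called lymphopain) is known from CD8 T cells and NK cells.

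Library totals lay between 16330802 and 18931090 counts, and 14330 genes had enough counts to be tested. Values are CPM, counts relative to the library total after edgeR's TMM scaling, SE is a standard error of a log2 fold change, and values after ± are SDs over the 2 libraries of a genotype. The SE was worked back from the fold change and the F statistic of the edgeR test, so it restates the p value. Calls required a fold change of at least 1.5 and, by the quasi-likelihood test of edgeR with Benjamini-Hochberg adjustment over all genes tested, an adjusted p under 0.05. The smallest two-sided p of an exact permutation test of 2 libraries against 2 is 0.333, and the adjusted p values come from variances shared across genes. Map2k1, the targeted MEK1 gene, had a log2 fold change of -0.86 and was called lower, while Map2k2 (log2 fold change 0.15) was not called, both counted over whole genes and not over the floxed exons. The labelled cell type was checked by 12 T-cell genes, among them Cd8a and Cd8b1. They summed to 2922 ± 0.182 CPM in WT against 2787 ± 140 CPM in Mek1/2-tKO libraries (SD, n = 2 per genotype). That sum holds opposite changes, with 3 genes higher (Cd8a, Cd8b1 and Thy1) and 4 lower (Cd3e, Trac, Cd4 and Cd5). Thy1 went from 567 to 1009 CPM and Cd5 from 376 to 128 CPM. Cd4 itself had 297 and 289 CPM in WT but 18.8 and 25.1 CPM in Mek1/2-tKO, so the defining marker of the labelled cell type was low in the Mek1/2-tKO libraries. Markers of B cells and NK cells were higher there, all 10 of each list, where 19.3% of all genes tested were. Their sums were 5.26 and 6.31 times those in WT, and their part in the results was not tested.

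All 10 genes had enough counts to be tested. In Mek1/2-tKO cells 9 of the 10 were higher past both thresholds and 1, Ctsb, was lower, where 19.3% of all genes tested were called higher and 16.4% lower. The sum of the 10 genes went from 903 ± 4.28 CPM in WT to 1930 ± 93.7 CPM in the knockout (SD, n = 2 per genotype), and their median log2 fold change was 0.92 against 0.02 over all genes tested. The size of the change differed widely among them. 4 genes (Ctsh, Ctsw, Cst3 and Ctss) rose by more than 2-fold and 5 by less. With the trend of the fold changes on exon length taken out, Ctsc (log2 fold change 1.17) and Ctsl (1.04) passed 2-fold as well.

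**Figure D1:**
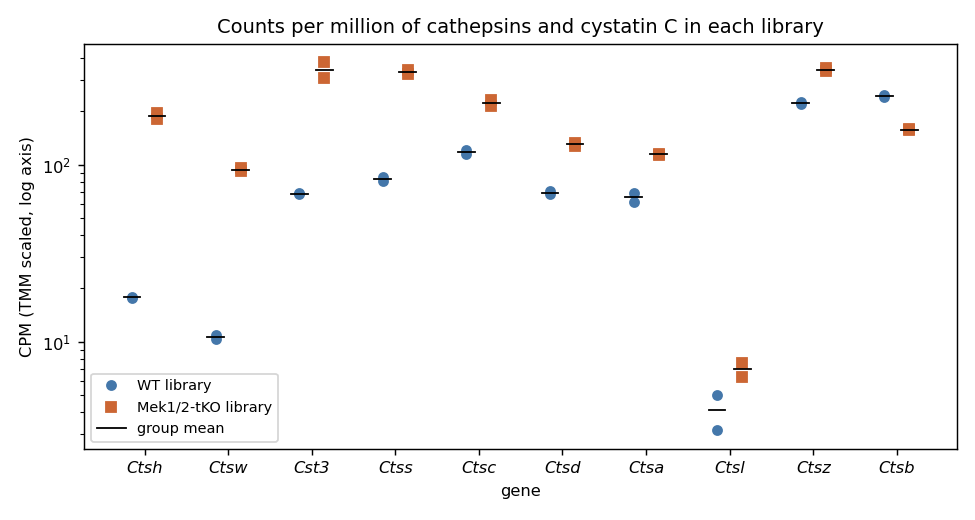
Each point is 1 library (circles WT, squares Mek1/2-tKO), with the level of each gene in CPM on a log axis, genes in order of fold change and black lines at the group means. Ctsh goes from 17.7 and 17.9 CPM in WT to 181 and 195 CPM in Mek1/2-tKO, and Ctsb is the gene whose Mek1/2-tKO libraries lie below the WT ones.

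Promoter sequence was read from RefSeq for 7 of the 10 genes (GRCm38.p6, the build of the counts, from 250 bases before to 50 bases after each start). Ctsb, Ctsh and Ctsw had no entry. The promoters of Ctsd and Ctsa are shown because lysosomal genes can carry the E-box that TFEB and its relatives bind, and those of Ctss and Cst3 because these rose most among the 7. Searched on both strands were CACGTG (the E-box), GAAANNGAAA (an interferon-stimulated response element), TTCNNNGAA (a gamma-activated site) and GAGGAA (the core of a PU.1 site), and every match is in capitals.

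Ctsd, chr7:142387778-142388077, minus strand: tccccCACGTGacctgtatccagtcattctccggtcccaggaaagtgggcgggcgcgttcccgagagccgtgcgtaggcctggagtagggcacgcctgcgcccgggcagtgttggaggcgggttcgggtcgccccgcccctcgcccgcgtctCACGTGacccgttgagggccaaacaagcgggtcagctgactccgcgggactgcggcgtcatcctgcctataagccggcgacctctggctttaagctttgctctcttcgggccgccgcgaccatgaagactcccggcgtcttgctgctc
Ctsa, second start, chr2:164833523-164833822, plus strand: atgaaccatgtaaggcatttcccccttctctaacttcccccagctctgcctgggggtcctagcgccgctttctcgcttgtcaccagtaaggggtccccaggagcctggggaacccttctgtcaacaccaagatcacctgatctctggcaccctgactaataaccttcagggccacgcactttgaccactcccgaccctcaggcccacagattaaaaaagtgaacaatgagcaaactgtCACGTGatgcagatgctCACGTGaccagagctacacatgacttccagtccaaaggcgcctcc
Ctss, chr3:95526536-95526835, plus strand: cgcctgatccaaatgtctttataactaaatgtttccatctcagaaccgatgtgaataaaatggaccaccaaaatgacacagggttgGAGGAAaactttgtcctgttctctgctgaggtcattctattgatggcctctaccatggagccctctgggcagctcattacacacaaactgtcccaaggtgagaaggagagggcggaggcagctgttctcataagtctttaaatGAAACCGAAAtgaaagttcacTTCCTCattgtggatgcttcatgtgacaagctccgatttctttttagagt
Cst3, chr2:148875463-148875762, minus strand: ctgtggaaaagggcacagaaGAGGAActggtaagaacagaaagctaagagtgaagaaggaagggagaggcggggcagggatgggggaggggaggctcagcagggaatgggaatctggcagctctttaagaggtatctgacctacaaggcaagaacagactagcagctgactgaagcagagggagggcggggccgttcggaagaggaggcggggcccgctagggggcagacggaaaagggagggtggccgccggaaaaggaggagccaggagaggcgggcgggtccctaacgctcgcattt

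The E-box was found at 2 places in the promoter of Ctsd, beginning 245 and 98 bases before the start, at 2 places at one of the 2 Ctsa starts and at 1 place in that of Ctsl, and 7.15% of all 32817 promoters held it. With no length trend taken out, Ctsd, Ctsa and Ctsl rose by less than 2-fold, as did Ctsc and Ctsz without the E-box. A link between motif and change was not tested. The Ctss promoter held the interferon-stimulated response element 21 bases before the start, a motif of 3.43% of all promoters, and the PU.1 core at 2 places. The Cst3 promoter held the PU.1 core at 1 place and none of the other letters, and that core is common, in 28.3% of all promoters. The Ctsc promoter held the gamma-activated letters at 1 place (8.29% of all promoters) and the PU.1 core at 2, while neither the Ctsz promoter nor the other Ctsa start held any of these letters. A match describes the letters and is not a measured site.

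Ctsh, which encodes an aminopeptidase of the lysosome that also processes surfactant protein, had the largest change of the 10 genes. It had 17.9 and 17.7 CPM in the WT libraries and 195 and 181 CPM in the Mek1/2-tKO libraries. The replicates lay close together and the genotypes far apart, a 10.5-fold rise with a log2 fold change of 3.40 (SE 0.10, edgeR adjusted p = 1.30e-11). Ctsh (ENSMUSG00000032359.14) lies on chromosome 9 from 90054152 to 90076089 (GRCm38, as all positions here), and no other gene shares its exons. Leaving out each library in turn kept its log2 fold change between 3.34 and 3.45.

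Ctsw had 11.0 and 10.4 CPM in WT and 95.1 and 91.5 CPM in Mek1/2-tKO. All Mek1/2-tKO values stood well above the WT values, an 8.73-fold rise with a log2 fold change of 3.13 (SE 0.11, edgeR adjusted p = 1.08e-10). Ctsw (ENSMUSG00000024910.4) lies on chromosome 19 from 5465240 to 5468498, and no other gene shares its exons. In the same libraries all 10 NK-cell markers were higher, with sums of 121 and 122 CPM in WT and 727 and 805 CPM in Mek1/2-tKO, led in level by Nkg7, and Cd8a rose from 33.2 to 139 CPM. Their part in the rise of Ctsw was not tested.

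Ctss (ENSMUSG00000038642.10, chromosome 3, 95526786 to 95556403), the protease that degrades the invariant chain, had 80.8 and 85.0 CPM in WT and 339 and 322 CPM in Mek1/2-tKO. Ctss rose 3.99-fold, with a log2 fold change of 2.00 (SE 0.08, edgeR adjusted p = 2.22e-10). Its neighbour Ctsk, the osteoclast protease whose gene ends 17423 bases before that of Ctss, had at most 4 counts in any library. The substrate of cathepsin S moved the same way, with Cd74 rising from 625 to 4041 CPM.

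Ctsz (ENSMUSG00000016256.10, chromosome 2, 174427493 to 174439039), a carboxypeptidase of leukocytes also known as cathepsin X, was the most abundant of the 10 genes per length in WT. Its libraries had 220 and 224 CPM in WT and 351 and 335 CPM in Mek1/2-tKO, a 1.55-fold rise (log2 fold change 0.63, SE 0.07, edgeR adjusted p = 7.86e-06) that lies just above the fold change threshold. It fell under that threshold with library size scaling (0.54) and when the trend of the fold changes on exon length was taken out (0.34). Ctsc (ENSMUSG00000030560.17, chromosome 7, 88278085 to 88310888), the activator of the granzymes, had 114 and 121 CPM in WT and 232 and 215 CPM in Mek1/2-tKO. The rise of Ctsc was 1.90-fold, with a log2 fold change of 0.93 (SE 0.08, edgeR adjusted p = 5.36e-07).

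Ctsb (ENSMUSG00000021939.8, chromosome 14, 63122462 to 63145923), an endopeptidase found in the lysosomes of most cells, went the other way. Its WT libraries had 248 and 241 CPM and its Mek1/2-tKO libraries 158 and 156 CPM, with little spread within a genotype. WT was 1.56-fold higher, a log2 fold change of -0.64 (SE 0.07, edgeR adjusted p = 8.17e-06). Exons of Fdft1, a gene of the other strand that also fell (log2 fold change -0.72), share 12.8% of the exon bases of Ctsb, and the strand setting of the counting is not stated. Ctsb is also a long gene (6051 exon bases), and genes of 6032 exon bases or more had a median log2 fold change of -0.36, against 0.47 in genes of 1882 or fewer. With that trend taken out its log2 fold change was -0.38, which is under the fold change threshold.

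Ctsl (ENSMUSG00000021477.9, chromosome 13, 64359337 to 64370890), an endopeptidase with a part in the positive selection of CD4 T cells in the thymic epithelium, was the lowest of the 10 genes per kilobase in both genotypes. It had 5.03 and 3.16 CPM in WT and 7.62 and 6.34 CPM in Mek1/2-tKO, from 61 to 119 counts a library. The rise of Ctsl was 1.70-fold (log2 fold change 0.76, SE 0.28, edgeR adjusted p = 0.0346), and it is the call that depends most on 1 library. Without WT replicate 2 its log2 fold change was 0.47 and without Mek1/2-tKO replicate 1 it was 0.63, and neither passed (edgeR adjusted p = 0.263 and 0.113). Genes of either strand share 26.9% of its exon bases. The genes Gm47123 and Gm49230 that share them had no counts, and reads on shared bases can be left out of both genes.

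Ctsd (ENSMUSG00000007891.16, chromosome 7, 142375911 to 142388038), the aspartic protease that activates other lysosomal enzymes, had 70.7 and 68.1 CPM in WT and 128 and 132 CPM in Mek1/2-tKO. Its rise was 1.87-fold, on the log2 scale 0.91 (SE 0.09, edgeR adjusted p = 1.40e-06). A gene on the same strand, Gm49369, shares 34.4% of the exon bases of Ctsd and was listed at 0 in all libraries, and reads on shared bases can be left out of both genes. Ctsa (ENSMUSG00000017760.16, chromosome 2, 164832873 to 164841032), which protects the lysosomal enzymes neuraminidase 1 and beta-galactosidase, had 69.0 and 61.4 CPM in WT and 113 and 115 CPM in Mek1/2-tKO. The rise of Ctsa was 1.75-fold, with a log2 fold change of 0.81 (SE 0.09, edgeR adjusted p = 7.72e-06). Exons of Neurl2 and Pltp on the other strand share 17.4% of those of Ctsa, and Pltp went from 2.86 to 12.8 CPM. The enzymes that cathepsin A protects were not called higher, since Neu1 had a log2 fold change of -0.23 and was not called and Glb1 fell by 0.66 on the log2 scale.

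Cst3 (ENSMUSG00000027447.6, chromosome 2, 148871722 to 148875692) had 69.0 and 67.9 CPM in WT and 377 and 309 CPM in Mek1/2-tKO. The Mek1/2-tKO replicates differed more from each other than the WT replicates did, yet both lay far above WT, a 5.01-fold rise (log2 fold change 2.32, SE 0.10, edgeR adjusted p = 4.09e-10). Without Mek1/2-tKO replicate 1 the log2 fold change was 2.18, the lowest value with any library left out. Cst3, Ctsa and Ctsz all lie on chromosome 2, and none of them shares exons with another of the 3.

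**Figure D2:**
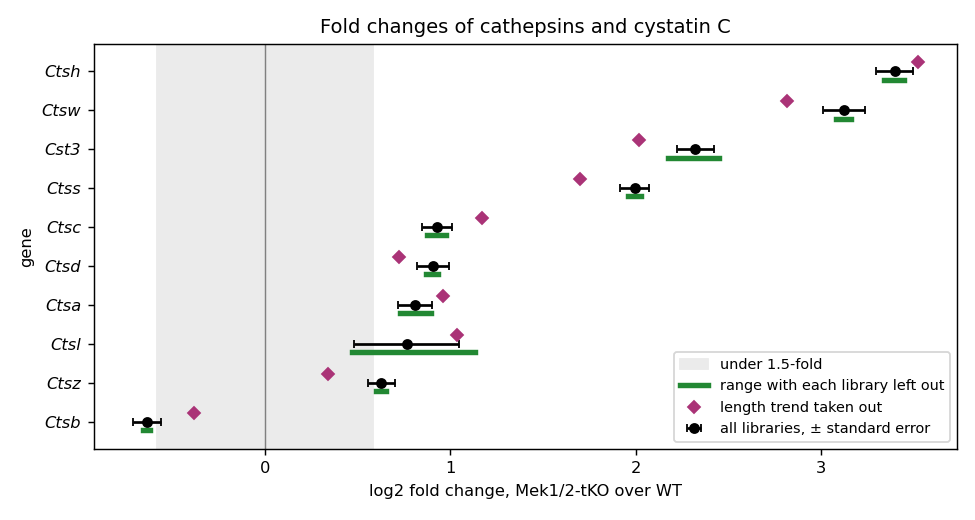
Points give the log2 fold change of each gene (Mek1/2-tKO over WT) with its standard error, green bars the range with each library left out in turn, and diamonds the value with the exon length trend taken out, while the grey band marks changes under 1.5-fold. Ctsh, Ctsw, Cst3, Ctss, Ctsc, Ctsd and Ctsa stand clear of the band in every case. The diamonds of Ctsz (0.34) and Ctsb (-0.38) fall inside it, as does the lower end of the green bar of Ctsl (0.47).

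Levels of different genes were compared per kilobase of exon. The length counts all annotated exon bases of a gene, which can exceed a single transcript. The order, the shares and the quotient with Cst3 below depend on it. In CPM without the length, Ctsb (245) stood above Ctsz (222) in WT. In WT the order was Ctsz (154 ± 2.17 CPM per kilobase), Ctss (61.0 ± 2.15), Cst3 (54.1 ± 0.603), Ctsb (40.4 ± 0.812), Ctsd, Ctsc, Ctsa, Ctsw, Ctsh and Ctsl, and no neighbouring pair overlapped (SD, n = 2). In Mek1/2-tKO the order was Cst3 (271 ± 37.7 CPM per kilobase), Ctss (244 ± 9.09) and Ctsz (238 ± 7.63), which overlapped each other as neighbours, followed by Ctsw, Ctsd, Ctsh, Ctsc, Ctsb, Ctsa and Ctsl. Ctsb thus went from the fourth place to the eighth and Ctsw from the eighth to the fourth. As a share of the summed per-kilobase level of the 10 genes, Ctsz went from 39.9 ± 0.441% to 23.5 ± 0.626%, Ctsb from 10.5 ± 0.242% to 2.56 ± 0.127% and Cst3 from 14.0 ± 0.198% to 26.6 ± 2.16%.

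**Figure D3:**
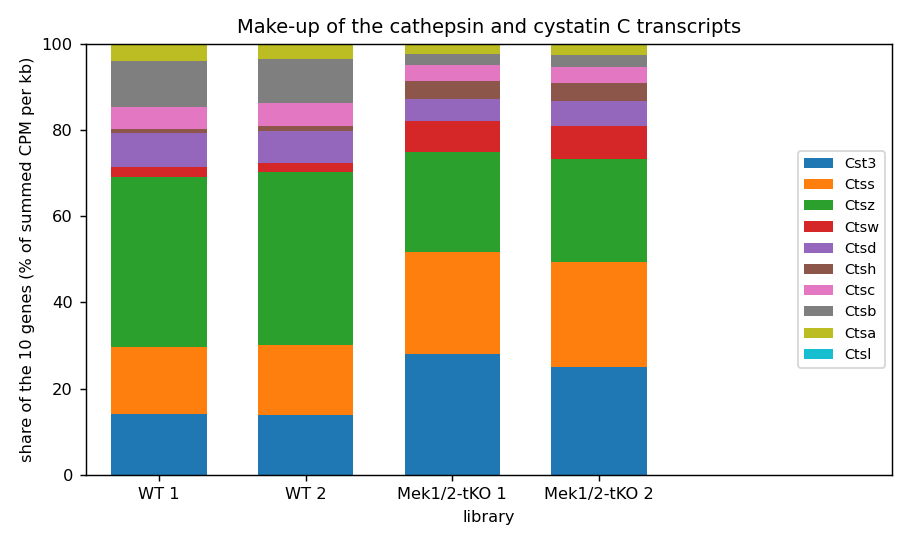
Each bar is 1 library, and the segments give each gene's share (%) of the CPM per kilobase summed over the 10 genes. Ctsz is the widest segment in both WT libraries (39.5 and 40.2%), and Cst3 is the widest in both Mek1/2-tKO libraries (28.1 and 25.1%).

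The inhibitor was also set against its targets. The per-kilobase level of Cst3 divided by the sum of the 7 papain-like genes was 0.19 and 0.184 in WT and 0.437 and 0.377 in Mek1/2-tKO. The denominator was 289 ± 3.69 in WT and 665 ± 23.5 CPM per kilobase in the knockout (SD, n = 2 per genotype). The quotient is a ratio of transcripts and does not measure protein or activity.

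Of 14 other cathepsin genes, 3 had enough counts to be tested and all 3 were higher, where 19.3% of all genes tested were. Ctso, a papain-like protease, rose from 7.20 ± 0.274 to 27.4 ± 0.957 CPM, for a log2 fold change of 1.92 (SE 0.16). Ctse, an aspartic protease of antigen-presenting cells, had 50 to 84 counts in WT and 100 to 164 in Mek1/2-tKO, with a log2 fold change of 1.14 (SE 0.30). Ctsg, a granule protease of myeloid cells, went from 2 and 4 to 36 and 16 counts. It passed the count filter only through its Mek1/2-tKO libraries, so once tested it could hardly be other than higher. The 9 genes of the placental cluster on chromosome 13 were at 0 in all libraries. A count of 0 allows up to 3 counts, which is 0.158 to 0.184 CPM over these libraries and covers counting error only.

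Inhibitors of proteases were read from a list of 31, of which 26 were in the table and 9 were tested. All 9 were higher, where 19.3% of all genes tested were. Cst6, with too few counts to be tested, went the other way (7 and 12 counts in WT, 4 in each Mek1/2-tKO library). Cst7 (cystatin F, an inhibitor of cathepsin C in granules) rose from 54.5 ± 1.16 to 88.8 ± 3.46 CPM, for a log2 fold change of 0.70 (SE 0.09). Cstb (stefin B, which inhibits cathepsins in the cytosol) had a log2 fold change of 0.87 and Ctla2a, an inhibitor of cathepsin L, of 1.19. The serpins of the list were also higher, led by Serpinb1a (2.71), an inhibitor of neutrophil serine proteases, and Serpina3g (1.90), which inhibits cysteine cathepsins. Serpina3f (1.40), Serpinb6a (1.07) and Serpinb6b (0.74) followed. Several of these serpins have close copies, and reads that fit several copies can be left out, since uniquely mapped reads were counted. Serpinb9 (log2 fold change 0.77) is known for granzyme B rather than for cathepsins.

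Other genes of the lysosome were read beside the same background of 19.3% higher and 16.4% lower. The trend on exon length was not taken out of any gene list. Of 38 hydrolases and processing enzymes, 15 were higher (39.5%), 2 lower (5.26%) and 21 not called, with a median log2 fold change of 0.20 against 0.02 over all genes. Lgmn, the asparaginyl endopeptidase that processes several cathepsins, rose from 12.0 ± 2.39 to 83.0 ± 4.85 CPM and Pld4, an exonuclease of the lysosome, from 17.1 ± 1.84 to 99.5 ± 11.4 CPM, while Acp2 (log2 fold change -0.76) and Glb1 (-0.66) were lower. Among 19 membrane proteins and cofactors, 7 were higher (36.8%), Laptm4a at 1.07 and the channel Mcoln2 at 2.36 among them, and Npc2 alone was lower (5.26%). Npc2, a carrier of cholesterol, fell from 457 ± 3.54 to 282 ± 15.9 CPM. The membrane proteins Lamp1 (0.23) and Lamp2 (0.12), which mark lysosomes in most cells, were not called.

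Of 16 sorting genes, 3 were higher and 3 lower (18.8% each way), shares near those over all genes, with a median log2 fold change of -0.05. Those named by the largest change were Sorl1 (1.03) and Gga2 (1.00), which carry cargo to the endosome, and Cln6 (-1.32) and Cln8 (-0.93), which help lysosomal enzymes leave the endoplasmic reticulum. Of 17 subunits of the proton pump, 5 were higher (29.4%) and 1, Atp6v1a (-0.65), was lower (5.88%), with Atp6v0b at 0.88 and Atp6v0a1 at 0.75. Atp6v1a is long (6044 exon bases), as is the higher Atp6v0a1 (6556), while Atp6v0b is shorter (2051). Tfeb, a master factor of lysosomal genes, was 1 of 5 factors listed and reached 56.5 ± 4.99 CPM from 26.9 ± 3.05 CPM, higher by 1.07 on the log2 scale (SE 0.12), whereas Tfe3 (-0.27) and Zkscan3 (0.03) were not called.

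**Figure D4:**
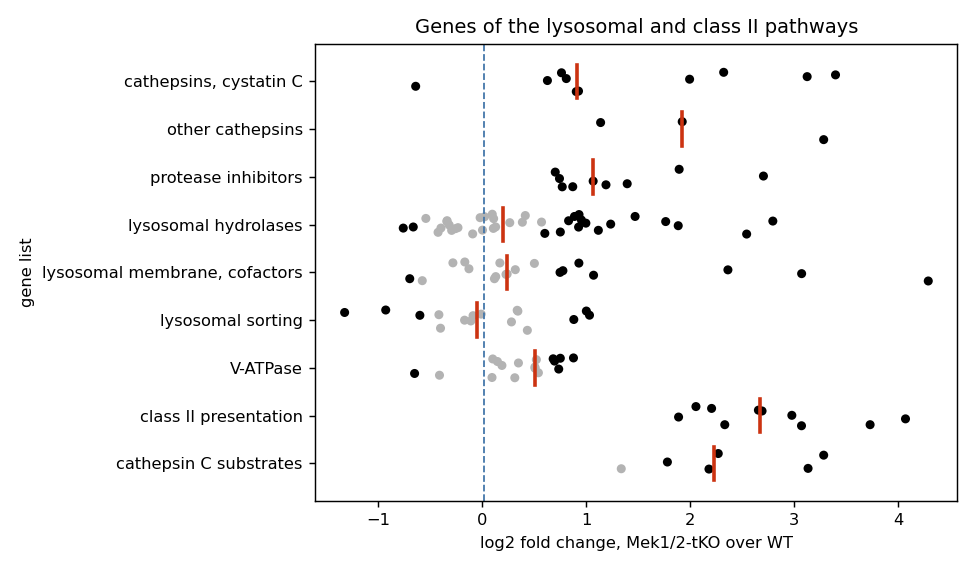
Each dot is the log2 fold change (Mek1/2-tKO over WT) of a tested gene, black where it was called and grey where not, by gene list, with red bars at the list medians and a dashed line at the median of all genes tested (0.02). All tested protease inhibitors and class II genes lie to the right of 0, as do the cathepsins and Cst3 apart from Ctsb (-0.64), and hydrolases, membrane, sorting and pump genes spread over both sides.

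The partners of cathepsins S and C were read beside them, and beside the 19.3% of all genes tested that were higher. All 10 genes of class II presentation were higher, with a median log2 fold change of 2.68, and their sum was 1802 ± 2.43 CPM in WT but 12308 ± 59.8 CPM in the knockout. The largest changes were those of H2-Ob (4.07) and H2-Oa (3.73), which modulate the loading of peptides. Of 10 granule proteases that cathepsin C activates, 6 were tested and 5 were higher (83.3%). These were Ctsg (3.29, from few counts and tested only through its Mek1/2-tKO libraries), Gzmc (3.14), Gzma (2.27), Cma1 (2.18) and Gzmb (1.78), the last going from 1370 to 4713 CPM. Gzmm (1.34) was not called, and Elane, Prtn3 and Mcpt4 of neutrophils and mast cells were at 0 in all libraries.

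Markers of other cell types moved with the cathepsins, where 19.3% of all genes tested were called higher. All 10 B-cell markers were higher, and their sum was 1237 to 1254 CPM in WT and 6527 to 6591 in Mek1/2-tKO, led in level by Ighm. Of 14 myeloid markers 7 were tested and all 7 were higher, with a sum of 97.5 to 109 CPM in WT against 386 to 398 in the knockout. By level the list was led by Mpeg1 (229 CPM in Mek1/2-tKO), Cybb (122 CPM), Tyrobp and Lyz2. Mpeg1 and Cybb made up most of the sum, and whether other cells present express them was not tested. Tyrobp, an adaptor of activating receptors, rose from 1.55 ± 0.303 to 18.2 ± 3.09 CPM (11.7-fold), and Lyz2, the macrophage lysozyme, from 0.516 ± 0.15 to 8.22 ± 2.81 CPM (15.7-fold). Adgre1, which encodes the macrophage antigen F4/80, had no counts in WT and 66 and 83 counts in Mek1/2-tKO, and Cd14 and Cd68 were the other 2 called. Of the 7 not tested, Csf1r had 0 and 8 counts in WT and 36 and 10 in Mek1/2-tKO, and C1qa, C1qb, C1qc, Itgam, Fcgr1 and Lyz1 had at most 10 in any library. Of 9 dendritic-cell markers 5 were tested and all 5 were higher (44.4 to 49.1 CPM in WT, 132 to 160 in the knockout). Batf3 (38.1 CPM in WT, 116 in Mek1/2-tKO) made up most of that sum, followed by Zbtb46. Whether other cells present express Batf3 was not tested. Flt3 rose 5.74-fold (29 and 17 counts in WT, 103 and 132 in Mek1/2-tKO), Itgax 6.30-fold (10 and 14 counts, then 60 and 75), and Ccr9 went from 2 counts in each WT library to 36 and 46. The 4 dendritic markers not tested (Clec9a, Siglech, Xcr1 and Cd209a) had 16 counts or fewer in any library. Adgre1, Lyz2 and Ccr9 passed the count filter only through their Mek1/2-tKO libraries, so for them being tested nearly meant being higher. The tallies of the myeloid and dendritic lists are therefore partly set by the filter. Of 8 gamma-delta T-cell markers, 7 were tested and 6 were higher, with Blk, Trdc and the Tcrg constant genes in front by level, and the list summed to 22.5 to 22.8 CPM in WT but 283 to 291 in the knockout. Blk is on the B-cell list as well, and Gzma is both an NK-cell marker and a cathepsin C substrate. In such bulk libraries more cells of a type and more RNA per cell cannot be told apart, and the part of these markers in the rise of the cathepsins and Cst3 was not tested.

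**Figure D5:**
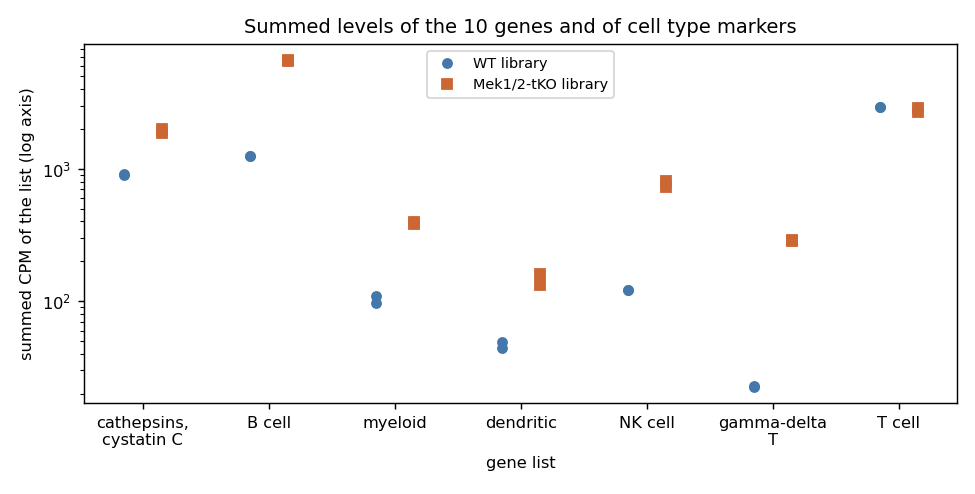
Points give the CPM summed over each list in each library (circles WT, squares Mek1/2-tKO) on a log axis. The 10 genes rise from 900 and 906 to 1864 and 1996 CPM, and the B-cell, myeloid, dendritic, NK-cell and gamma-delta lists rise beside them. The T-cell list is at 2922 CPM in both WT libraries and at 2886 and 2688 CPM in Mek1/2-tKO, a sum of 3 genes called higher, 4 lower and 5 not called.

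The genes nearest in pattern to each of the 10 were taken from 9606 genes of an average log2 CPM of at least 3, by the Euclidean distance of mean-centred log2 CPM over the 4 libraries. Ctsh was nearest to Cd79a (distance 0.0809), Fcgr2b (0.126) and Igkv8-30 (0.148). Ctss was nearest to Entpd1 (0.0169), Serpina3g (0.101) and Ms4a4b (0.113), and Ctsw to H2-Aa (0.103), Igkv8-21 (0.137) and Klrk1 (0.152). All 3 genes nearest to Cst3 were immunoglobulin kappa V segments, Igkv3-12 (0.0878), Igkv5-43 (0.0884) and Igkv3-2 (0.107), whereas Ctsb was nearest to Tars (0.00615), Etaa1 and Gm5422. The others were nearest to 1110059E24Rik (Ctsa), Gm7392 (Ctsc), As3mt (Ctsd), Syap1 (Ctsl) and Gm10420 (Ctsz). Over only 4 libraries in 2 groups, genes of like fold change lie near each other by construction.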

How the data were processed

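RNA-seq of WT and Mek1/2-tKO cells (2 libraries each, day 3) was used as deposited. The authors trimmed reads with Trimmomatic (0.36), mapped them to GRCm38, counted uniquely mapped reads per gene with featureCounts (Subread 1.5.1) and deposited raw counts without normalization. The annotation release and strand setting are not given in the sources used here. Symbols were matched to 54723 of 54752 identifiers. Counts were filtered by filterByExpr, scaled by TMM and tested by a robust quasi-likelihood fit (edgeR 4.0.16, R 4.3.3), and CPM carry the same scaling. DESeq2 1.42.0 (the tool named in the paper), other scalings, filters and thresholds, a replicate block and leaving out each library were alternatives, and a lowess trend on exon length (span 0.3) was added after the data were seen. In simulated WT and Mek1/2-tKO counts of 13614 genes, 200 of the better counted genes were changed, up or down, with no trend on exon length. There edgeR recovered 82.1% of the 2-fold and 96.2% of the 4-fold changes with 10 unchanged genes called. The data hold a length trend and far more calls (2768 higher and 2355 lower), so these rates may not hold for them. Replicates differed by more than sampling noise. The members and lists were chosen with earlier results of these data known. Named genes were the 10 members, all tested cathepsins and inhibitors, the genes of largest change in each direction of the other lists (average log2 CPM of at least 3), the most abundant markers, and the 3 genes nearest in pattern; Cd74, Gzmb, Cma1, Gzmm, Neu1, Lamp1, Lamp2, Cd4, Cd8a, the overlapping genes and the markers named beyond the most abundant of each list were chosen after their values were seen.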

Additional observations from a re-analysis of the deposited data

How the results depend on the processing

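The direction of all 10 genes was the same under every alternative run. Calls were lost for Ctsl with DESeq2 (0.77, adjusted p = 0.0701), with library size scaling (0.68, adjusted p = 0.052 from edgeR) without WT replicate 2 or Mek1/2-tKO replicate 1 and at an adjusted p under 0.01 (8 of the 10 then higher), for Ctsz with library size scaling and with the length trend taken out, and for Ctsb with that trend taken out, which left 8 genes higher and 0 lower. At a fold change of at least 2, 4 of the 10 genes were higher and 0 lower, and over all genes 1725 were higher and 1040 lower in place of 2768 and 2355. With no fold change threshold 3983 genes were higher and 3903 lower. Library size scaling moved the higher share of calls from 54.0 to 45.6% and the median of all genes from 0.02 to -0.07. Same-numbered WT and Mek1/2-tKO libraries did not deviate together (r = -0.0262 across genes). That gives no sign of pairing, but a single correlation cannot exclude it. Adding the replicate number as a block gave 2652 higher and 2300 lower genes and the counts of 9 higher and 1 lower among the 10. Counts were low for Ctsl (61 to 119 a library) and, among the other tested cathepsins, for Ctsg (2 to 36).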
